A study of Mus musculus with 8 samples.

Results

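Exosomal miRNAs of mouse cerebrospinal fluid (CSF) were compared between mice given deoxycorticosterone acetate with salt (DOCA+Salt in the labels, DOCA-salt here) and untreated baseline mice. The comparison uses 4 of the 8 libraries in the series. They are 1 library from DOCA-salt females, 1 from baseline females, 1 from DOCA-salt males and 1 from baseline males, all wild-type adults. They were chosen by fluid and treatment label and were read as a female pair and a male pair. The other 4 libraries hold plasma exosomes of the same combinations. The labels state 8 mice and do not say which mice, or pools of mice, gave each library. They give no ages beyond adult, and no dose or duration of DOCA-salt. As each combination has 1 library, p-values rest on the spread between unlike libraries and not on the spread between mice of 1 combination.

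DOCA is a precursor hormone with mineralocorticoid action, and together with salt it is used to raise blood pressure in rodents through salt retention and effects on the vessels, kidney and brain. CSF is secreted mainly by the choroid plexus and bathes the brain, its ventricles and its meninges. Exosomes are small vesicles that cells release with RNA inside, so vesicles in CSF can come from brain, choroid plexus, meninges, vessels or blood. A miRNA is a short RNA cut from a hairpin precursor, and either strand of the hairpin (5p or 3p) can be kept. It pairs with target mRNAs mainly through its seed, bases 2 to 8, and lowers their translation or stability. In bulk fluid, fewer vesicles of a cell type and less of a miRNA in each vesicle cannot be told apart.

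Counts are of unique molecular identifiers (UMIs), random tags added before amplification. The libraries held 237878 UMIs (baseline female), 303625 (DOCA-salt female), 753144 (baseline male) and 1082504 (DOCA-salt male), over 1961 listed miRNAs. Depth was thus higher in both male libraries, and within each sex higher after DOCA-salt. Levels are CPM, the UMI counts brought to a common library total, after scaling by the trimmed mean of M-values (TMM), which corrects for differences in make-up. The TMM factors ran from 0.653 to 1.512 and split by sex. A count of 3 UMIs, the limit that a count of 0 allows, corresponds to 2.771 to 12.61 CPM before TMM scaling. When the fluid label was checked against marker lists, miRNAs of the choroid plexus and ciliated cells took between 0.033% and 0.0479% of UMIs and those of neurons between 0.246% and 0.402%, whereas miRNAs of striated muscle took between 36.3% and 56.6%. Of the members of the 26 lists used that are among the 1961 miRNAs, none was at 0 in all 4 libraries. The Sfmbt2 cluster list has 18 members, of which 15 are among them.

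No miRNA passed the test across all miRNAs, while 17 moved at least 2-fold the same way in both pairs. Of 1036 miRNAs tested with edgeR's quasi-likelihood test with sex as a term, 0 had an adjusted p under 0.05 (0%), and DESeq2's Wald test also called 0. At an unadjusted p under 0.05 there were 84, of which 40 were higher and 44 lower after DOCA-salt. The lowest adjusted p was 0.053, and an exact permutation test of 2 libraries against 2 cannot give a two-sided p below 0.333. The pairs were therefore read side by side over the 377 miRNAs with at least 50 UMIs in each pair. Ratios are log2 of DOCA-salt over baseline on TMM-scaled CPM with a prior count of 1, and their 95% intervals cover counting error only.

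In the female pair 61 of 377 miRNAs (16.2%) were at least 2-fold higher after DOCA-salt and 24 (6.37%) at least 2-fold lower. In the male pair 41 (10.9%) were higher and 35 (9.28%) lower. Both pairs were past 2-fold in the same direction for 11 miRNAs higher (2.92%) and 6 lower (1.59%), and in opposite directions for 9 (2.39%). At any size, 145 miRNAs (38.5%) were higher in both pairs, 72 (19.1%) were lower in both, and 160 had opposite signs. Over all 377 miRNAs the ratios of the pairs had a Pearson r of 0.13 and a Spearman rho of 0.16, as a description, since miRNAs of a library share its depth and scaling. Both DOCA-salt levels lay outside the range of both baseline levels for 128 of the 377 (34%) and for 16 of the 17, a count that the choice of the 17 largely fixes. The exception is miR-3063-3p.

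**Figure D1:**
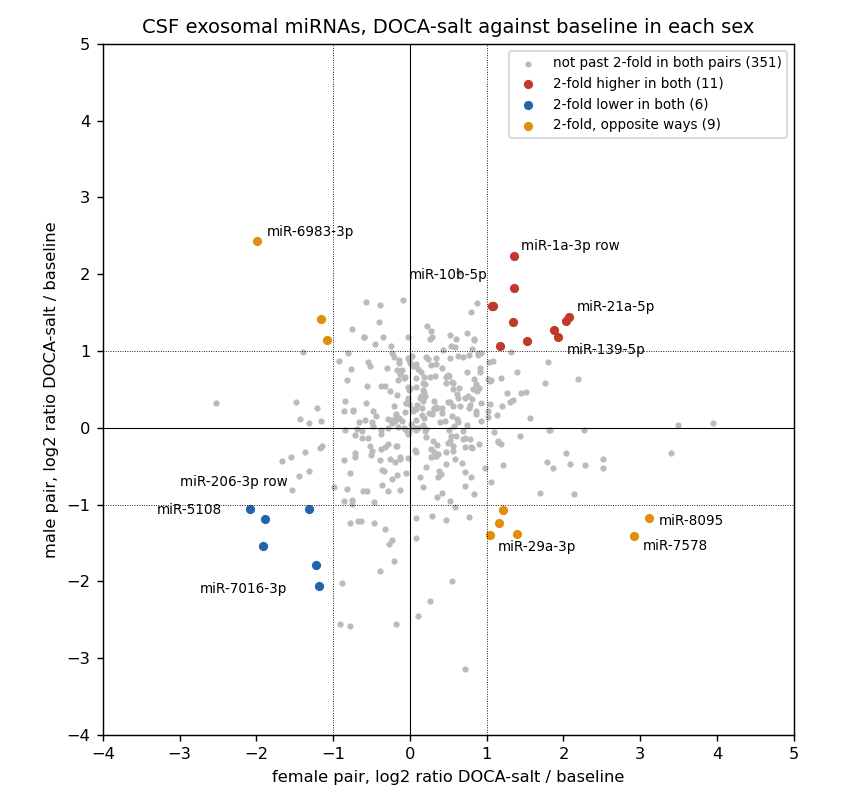
Each point is 1 of 377 CSF miRNAs, with the log2 ratio of DOCA-salt over baseline for females on the x axis and for males on the y axis; dotted lines mark 2-fold. The 11 miRNAs 2-fold higher in both pairs are red, the 6 lower in both are blue and the 9 that went opposite ways are orange, while most points lie near 0 with no narrow diagonal.

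Among the 17, the sequences that carry the results below are those of the best known miRNAs that were higher in both pairs, and those of 4 miRNAs that end at the last base of a host intron. They are RefSeq's mature sequences on build GRCm38.p6, 5′ to 3′, with the seed in capitals.
miR-10b-5p: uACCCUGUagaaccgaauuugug
miR-21a-5p: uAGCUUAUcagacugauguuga
miR-214-3p: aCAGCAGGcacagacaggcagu
miR-139-5p: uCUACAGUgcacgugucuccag
miR-7058-3p: cUCGUUCCuuccuuucuuccag
miR-7002-3p: uUGUGCUUccccuugccag
miR-6965-3p: uCUGUGCUcggucucgcuccag
miR-7016-3p: aCCUGCCUccugcucuccccag
Of the 17 miRNAs, 15 were matched to a printable RefSeq sequence, and those 15 had 15 different seeds. No seed recurred among them. Their GC content was like that of the other miRNAs, with a median of 54.5% for the higher ones (n = 10) and 55.0% for the lower ones (n = 5) beside 56.5% for all tested miRNAs with a sequence (n = 906).

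miR-21a-5p, a miRNA known for its rise in tissue injury, inflammation and fibrosis, stood at 1334 CPM in the baseline female and 2074 CPM in the baseline male, against 5639 and 5666 CPM in the DOCA-salt female and male. Both DOCA-salt libraries were well above both baseline libraries and nearly equal to each other. The log2 ratio was 2.08 in females (95% interval 1.94 to 2.22) and 1.45 in males (1.35 to 1.55), or 4.22-fold and 2.73-fold. The fitted log2 fold change was 1.76 ± 0.47 (SE, n = 2 against 2), which did not pass in edgeR's test (adjusted p = 0.0711). The gene lies on chromosome 11 (86584120 to 86584141, minus strand, mm10) in a non-coding exon of Vmp1, which encodes a membrane protein of autophagy. Its other strand, miR-21a-3p, had between 2 and 6 UMIs in every library, too few to follow.

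miR-10b-5p, encoded in the Hoxd cluster on chromosome 2 (74726074 to 74726096, plus strand, introns of Hoxd3 and Hoxd4), stood at 1854 CPM in the baseline female and 2219 CPM in the baseline male. The DOCA-salt female held 4746 CPM and the DOCA-salt male 7876 CPM, so the groups did not overlap and the male difference was the larger one. The log2 ratios were 1.36 (1.23 to 1.48) and 1.83 (1.74 to 1.92), with a fitted value of 1.59 ± 0.46 that did not pass in edgeR's test (adjusted p = 0.0955). Its other strand miR-10b-3p was also higher in both pairs, at 1.80 and 0.85, from counts of 14 and 62 UMIs in females and 30 and 74 in males. miR-10a-5p, of the Hoxb cluster and with the same seed, had smaller ratios of 0.69 and 0.92.

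The members of the family of miR-10, miR-99 and miR-100 share most of their sequence and lie in Hox clusters or beside let-7 and miR-125 genes. The family had 4 of 5 members higher in both pairs, beside 145 of all 377 miRNAs, and 0 called. Its fitted values had a median of 0.87 beside 0.01 for all tested miRNAs. miR-99b-5p had log2 ratios of 0.88 and 1.62 and miR-99a-5p of 0.53 and 1.21. miR-100-5p stood near no difference, at -0.07 in females and 0.20 in males. The family therefore did not move as one, and miR-10b-5p was its only member past 2-fold in both pairs.

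Several fibroblast and mesenchymal miRNAs stood higher in both pairs, with 0 called. miR-214-3p, made with miR-199a from the antisense transcript Dnm3os (chromosome 1, 162223438 to 162223459, plus strand, exon), went from 175 to 397 CPM in females and from 93.3 to 198 CPM in males. Both DOCA-salt libraries were above both baselines, the lower one by little. Its log2 ratios were 1.17 (0.76 to 1.62) and 1.07 (0.61 to 1.59), with a fitted value of 1.13 ± 0.53 and an adjusted p of 0.524 in edgeR's test. miR-199a-3p, the abundant strand, went from 13230 to 23650 CPM and from 14060 to 31290 CPM, a log2 ratio of 0.84 in females and 1.15 in males. Its other strand miR-199a-5p, a miRNA studied in cardiac and renal fibrosis, had ratios of 1.32 and 0.99, just short of 2-fold in males.

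On the list of mesenchyme and fibroblast miRNAs, 4 of 5 measured members were higher in both pairs, beside 145 of all 377 miRNAs. The list had a median fitted value of 1.00, and 0 were called. The counts of miR-199a-3p and miR-199b-3p were nearly equal in every library, so their reads may be shared. These strands may therefore not be separate members of the list. The measured member that was not higher in both pairs was miR-199b-5p, at 0.35 and -0.35. The whole list of 6 took 4.10% and 7.07% of UMIs in females at baseline and after DOCA-salt and 2.04% and 4.22% in the males. Its share was thus higher after DOCA-salt within each sex, although the baseline female and the DOCA-salt male were close.

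**Figure D2:**
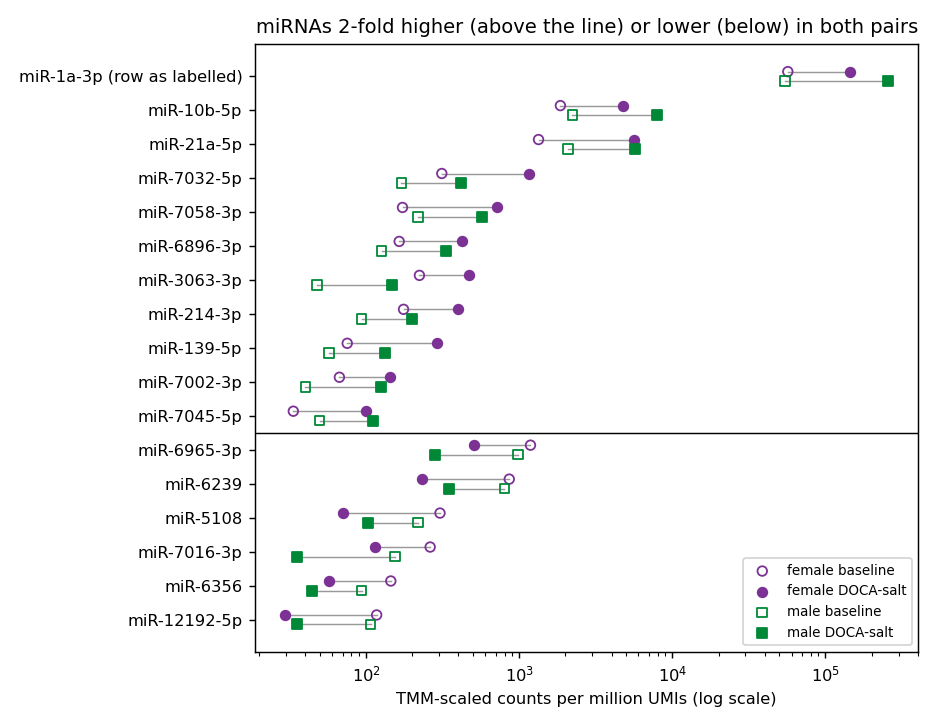
TMM-scaled CPM of the 17 miRNAs past 2-fold in the same direction in both pairs, on a log axis, with baseline libraries as open and DOCA-salt libraries as filled symbols (circles female, squares male); lines join the 2 libraries of a sex. The 11 above the line are higher after DOCA-salt and the 6 below are lower, over a range from about 30 CPM to the muscle row labelled miR-1a-3p.

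The other miRNAs higher in both pairs are little studied and lie within host genes. miR-7058-3p, within Lat (a linker protein of T cell receptor signalling), stood at 172 and 217 CPM in the baseline female and male and at 712 and 572 CPM after DOCA-salt. These levels had a wide gap between the treatments and log2 ratios of 2.03 (1.65 to 2.46) and 1.39 (1.09 to 1.71). Its other strand miR-7058-5p stood at 0.20 and 0.27, from 12 to 36 UMIs. miR-7032-5p, within an intron of Hip1r (a clathrin and actin adaptor), went from 311 to 1151 CPM in females and from 170 to 413 CPM in males. Its ratios were 1.88 (1.59 to 2.20) and 1.28 (0.94 to 1.64), and the DOCA-salt male lay only slightly above the baseline female.

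miR-6896-3p, within an intron of the cytoskeletal linker gene Dst, had nearly the same ratio in both sexes, 1.34 (0.92 to 1.80) and 1.38 (0.99 to 1.81). miR-3063-3p, within a non-coding exon of Igf2bp1 (an RNA-binding protein), had ratios of 1.06 and 1.59. Its levels were 222 and 467 CPM in females and 47.6 and 147 CPM in males, so the DOCA-salt male lay below the baseline female and the treatments overlapped. miR-7002-3p, in Aqr (an intron-binding helicase), had counts of 24 and 63 UMIs in females and 21 and 88 in males, with ratios of 1.08 and 1.59. miR-7045-5p, in a non-coding exon of the chromatin remodeller gene Chd4, had the lowest counts of the 11, 12 and 44 UMIs in females and 26 and 78 in males, and is named because it completes the 11, after its values were seen. The adjusted p-values in edgeR's test for these 6 miRNAs ran from 0.154 for miR-7058-3p to 0.333 for miR-3063-3p.

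The 6 miRNAs lower in both pairs were all of modest count. miR-6965-3p, in an intron of the cell cycle gene Ccnf (chromosome 17, 24240884 to 24240905, minus strand), was the most abundant, at 1182 and 979 CPM in the baseline female and male and 503 and 282 CPM after DOCA-salt. The groups did not overlap, and its log2 ratios were -1.23 (-1.47 to -0.99) and -1.79 (-2.04 to -1.56). miR-6239, which has no host gene, went from 859 to 231 CPM in females and from 798 to 350 CPM in males, ratios of -1.89 and -1.19. miR-7016-3p, in an intron of Tmem39b, had ratios of -1.19 and -2.06, so that the male difference was the larger for both intron-end miRNAs among the 6.

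For miR-6239 and the other 3 the female difference was the larger. miR-12192-5p, in an intron of the antisense gene Gm16066, had ratios of -1.92 and -1.54. miR-5108, without a host gene, had -2.08 (-2.73 to -1.52) and -1.06 (-1.52 to -0.64). miR-6356 had -1.32 and -1.06 from counts of 52 and 25 UMIs in females and 49 and 31 in males, and its male interval reached -0.41. None passed in edgeR's test, with adjusted p-values between 0.0955 for miR-12192-5p and 0.385 for miR-6356.

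An end at the last base of a host intron was found for 2 of the 11 miRNAs higher in both pairs (miR-7002-3p and miR-7058-3p) and 2 of the 6 lower ones (miR-6965-3p and miR-7016-3p). Among the miRNAs with a position, 46 of 375 at 50 UMIs in each pair (12.3%) and 120 of 1030 tested (11.7%) ended so. Such ends are known from mirtrons, miRNAs whose hairpin is a whole short intron cut out by splicing. The 4 of them here went both ways, 2 higher and 2 lower.

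The strands of the miR-139 hairpin stood on opposite sides of 0 in both sexes, and far apart. miR-139-5p, cut from an intron of the phosphodiesterase gene Pde2a, had 27 and 128 UMIs in females (baseline, then DOCA-salt) and 30 and 93 in the males. Its CPM of 75.1 and 57.1 at baseline and 290 and 132 after DOCA-salt did not overlap, and its log2 ratios were 1.92 (1.34 to 2.61) and 1.18 (0.60 to 1.85). miR-139-3p, the more abundant strand in all 4 libraries, went from 3158 to 1707 CPM in females and from 2105 to 515 CPM in males. Both DOCA-salt levels of the 3p strand were below both baseline levels, with ratios of -0.89 (-1.02 to -0.75) and -2.03 (-2.21 to -1.86). The strands thus differed by 2.81 in females and 3.20 in males on the log2 scale. In edgeR's test the 5p strand stood at 1.57 ± 0.52 (adjusted p = 0.174) and the 3p strand at -1.46 ± 0.48 (adjusted p = 0.165), so neither passed. The RefSeq hairpin, shown because both of its arms were measured, is given with the 5p and 3p arms in capitals (GRCm38.p6, chr7:101475376-101475443, plus strand).
Mir139: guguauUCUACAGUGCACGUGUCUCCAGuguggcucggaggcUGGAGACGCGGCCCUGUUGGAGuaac

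Such a split was rare among the 42 hairpins with both strands at 50 UMIs or more in each pair. The median absolute difference between strands was 0.48 in females and 0.47 in males, and 2 hairpins were past 2-fold the same way in both pairs, while 0 were past 2-fold in opposite ways. The second was miR-23a, of a cluster with miR-27a and miR-24 that is expressed in vessels and muscle. miR-23a-3p had ratios of 0.91 and 0.78, whereas miR-23a-5p had -0.78 and -2.59, from counts of 51 and 36 UMIs in females and 237 and 52 in males. In males the 5p strand was thus much lower after DOCA-salt while the 3p strand was higher.

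**Figure D3:**
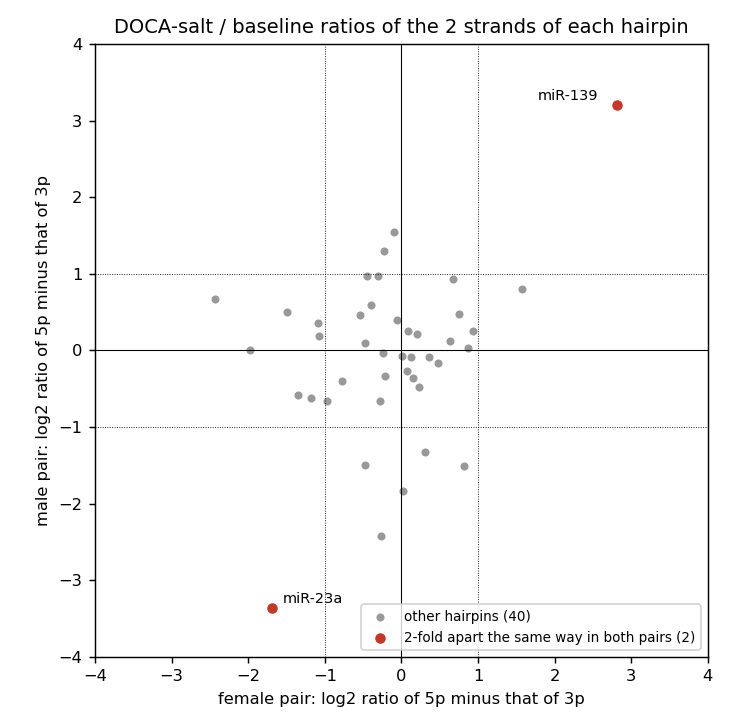
For each of 42 hairpins, the log2 DOCA-salt over baseline ratio of the 5p strand minus that of the 3p strand, for females (x axis) and males (y axis); dotted lines mark 2-fold. miR-139 (2.81 and 3.20) and miR-23a (-1.69 and -3.36) are the 2 hairpins past 2-fold the same way in both pairs, and the other 40 lie closer to 0 in at least 1 pair.

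The most abundant miRNAs of these libraries were those of striated muscle, and 2 of their rows have uncertain labels. miR-1 and miR-206 share a seed and most of their sequence, miR-206 being specific to skeletal muscle and miR-1 common to heart and skeletal muscle. The CPM columns of these 2 rows are exchanged against their UMI columns: in the baseline female the deposited CPM of miR-1a-3p is 200200, where its UMIs give 85800. The row labelled miR-1a-3p held 8.58% and 21.1% of UMIs in females at baseline and after DOCA-salt and 3.79% and 16.8% in the males. The row labelled miR-206-3p held 20.02% and 6.65% in females and 44.7% and 23.9% in males. Together the rows held 28.6%, 27.8%, 48.5% and 40.7%, so their sum differed far less between the treatments than either row did.

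On the TMM scale the row labelled miR-1a-3p was higher in both pairs, with log2 ratios of 1.36 and 2.24 and a fitted value of 1.80 ± 0.45 that just missed the threshold in edgeR's test (adjusted p = 0.053). The row labelled miR-206-3p was lower in both, at -1.53 and -0.81, with a fitted value of -1.17 ± 0.45 (adjusted p = 0.274). That value moved when 1 library was left out, in fits that also dropped the term for sex. It was 0.72 without the baseline male, -0.08 without the DOCA-salt female and -3.10 without the DOCA-salt male. Each such fit set 1 library of 1 sex against libraries of both sexes. At baseline the row stood at 132400 CPM in the female and 640600 CPM in the male. With the labels exchanged the fitted values of both rows change places, so miR-1a-3p would be the lower one, at -1.17. Among the other miRNAs of miR-1 genes, the better counted miR-1b-5p and miR-1a-1-5p followed the row labelled miR-206-3p. miR-1a-1-5p is the other strand of a miR-1a hairpin. The deposited position of miR-1b-5p (gene Mir1b) overlaps that of miR-1a-3p on the opposite strand. miR-1b-5p is thus not a strand of that miR-1a hairpin. miR-1b-5p had ratios of -1.55 and -0.38 and miR-1a-1-5p of -1.67 and -0.43. Across the 4 libraries the log2 ratio of the row labelled miR-206-3p to miR-1b-5p stayed between 3.62 and 4.10. When the miR-1a-3p row was divided by miR-1b-5p instead, the log2 ratio ran from 0.49 to 5.77. For miR-1a-2-5p, with 1 to 4 UMIs a library, both ratios varied widely (SD of the log2 ratio 1.454 to the row labelled miR-206-3p and 1.299 to that labelled miR-1a-3p).

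miR-133, which is cut from the same transcripts as miR-1 and miR-206, did not follow either row. miR-133a-3p had ratios of -0.20 and 0.09 and miR-133b-3p, whose counts were nearly equal to it, of -0.19 and 0.18. The minor strand miR-133a-5p stood lower in both pairs, at -1.29 and -2.15, from only 17 and 8 UMIs in females and 43 and 12 in males. miR-208a-3p of the heart and miR-499-5p of heart and slow muscle, both encoded in myosin genes, had at most 7 UMIs in any library. The 8 listed miRNAs of striated muscle took 38.7% and 36.3% of UMIs in females at baseline and after DOCA-salt and 56.6% and 49.1% in the males.

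**Figure D4:**
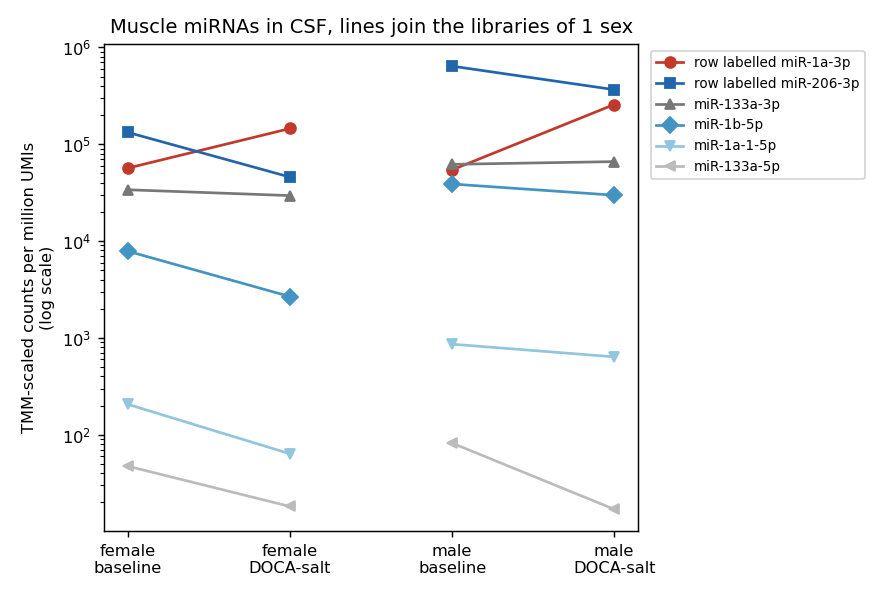
TMM-scaled CPM (log axis) of 6 muscle miRNAs in the 4 CSF libraries, with lines joining the baseline and DOCA-salt library of each sex. The row labelled miR-1a-3p goes up in both sexes and the row labelled miR-206-3p goes down together with miR-1b-5p and miR-1a-1-5p, while miR-133a-3p is nearly level.

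Muscle miRNAs filled so much of each library that the scaling mattered. With library totals that leave them out, the median log2 fold change over all tested miRNAs was -0.25 in place of 0.01, and 5 miRNAs were 2-fold higher and 10 lower in both pairs, in place of 11 and 6. The 5 were miR-10b-5p, miR-1a-3p as labelled, miR-21a-5p, miR-6896-3p and miR-7058-3p. All 17 miRNAs kept their sign in both pairs under that scaling, with total-count scaling, with a prior count of 5 and with read counts.

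The miR-23, miR-27 and miR-24 clusters are expressed in endothelium and muscle and act on angiogenic and lipid genes. They had 5 of 5 members higher in both pairs, beside 145 of all 377 miRNAs. The 5 were also higher in both with total-count scaling (128 of all 377) and without the muscle miRNAs in the totals (88 of all 377). Their median fitted value was 0.94, and 0 were called. miR-27b-3p had log2 ratios of 1.40 and 0.73, miR-27a-3p of 1.45 and 0.45, and miR-23b-3p of 1.03 and 0.85. miR-24-3p, known to target the aldosterone synthase mRNA in human adrenal cells, went from 965 to 1466 CPM in females and from 1169 to 2614 CPM in males. Its DOCA-salt levels lay above both baselines, at ratios of 0.60 and 1.16.

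miR-24-3p also stands on the list of miRNAs tied to the mineralocorticoid receptor, aldosterone or blood pressure. There 9 of 9 tested members had fitted values above 0, beside 530 of all 1036 tested, and 0 of the 9 were called. Their median was 0.88, or 0.63 with 1 member, miR-155-5p, below 0 when the muscle miRNAs were left out of the totals. Of the 7 members with at least 50 UMIs in each pair, 6 were higher in both pairs, or 4 with the muscle miRNAs left out, beside 145 of all 377. The list holds miR-21a-5p, miR-320-3p (0.56 and 0.58) and miR-425-5p, which is known in human cells to target the natriuretic peptide A mRNA (0.81 and 1.02). miR-124-3p, known in human cells to repress the mineralocorticoid receptor, was near its detection limit except in the DOCA-salt male, with 5, 3, 5 and 31 UMIs in the baseline female, DOCA-salt female, baseline male and DOCA-salt male. miR-135a-5p, another such miRNA, had 0 UMIs in both females.

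Inflammation miRNAs were mixed apart from miR-21a-5p. On that list 6 of 9 members were higher in both pairs, with a median of 0.33, beside 145 of all 377 miRNAs. The list's count was 4 with total-count scaling and 3 without the muscle miRNAs in the totals, where its median was 0.07. miR-146a-5p, which dampens Toll-like receptor signalling, had ratios of 0.57 and 0.02, and miR-155-5p, induced in activated leukocytes and microglia, of 0.56 and -0.24. miR-223-3p, of neutrophils, had 0.27 and 0.82. The leukocyte list as a whole had a median of 0.22, which turned to -0.04 when the muscle miRNAs were left out of the totals.

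Red-cell miRNAs did not move together. miR-486a-5p had ratios of 0.93 and 0.98, just short of 2-fold, and miR-486b-5p, with nearly equal counts, 0.89 and 0.95. miR-451a, the most specific miRNA of red cells, had 0.32 in females and -0.37 in males. The erythrocyte list took 0.664% and 1.16% of UMIs in females at baseline and after DOCA-salt and 0.646% and 1.02% in the males. Its share was higher after DOCA-salt in both sexes, mostly through the miR-486 rows. Reads of these rows may be shared, so the share may count the same reads in both. miR-144-3p, also on the list, stood at 0.57 and -0.02, from 14 to 131 UMIs. The part of this list in the other results was not tested.

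The median of neuronal miRNAs was above 0 in the male pair and below 0 in the female pair. miR-9-5p, of neural progenitors and neurons, had 272 and 261 UMIs in females (baseline, then DOCA-salt) and 481 and 1468 in the males, log2 ratios of -0.35 and 1.18. miR-128-3p, of mature neurons, had 0.33 and 0.68. Over the 5 neuronal miRNAs with enough UMIs the median ratio was -0.29 in females and 0.68 in males, and of 11 tested 0 were called. The choroid plexus miRNA miR-204-5p had 0.10 and 0.77. It was the only one of 5 tested members of the choroid plexus and ciliated cell list with a fitted value above 0. That list had a median fitted value of -0.04 and 0 called. Its member miR-34b-3p had ratios of -1.13 and 0.01, from 13 to 34 UMIs.

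The same signs were seen for the Dlk1-Dio3 cluster, an imprinted locus of many brain miRNAs, which had a median ratio of -0.40 in females and 0.82 in males over 12 members. Of these 12, 2 were higher in both pairs and 4 lower in both, beside 145 and 72 of all 377 miRNAs. miR-127-3p was higher in both, at 0.23 and 0.90. miR-134-3p (-0.71 and -0.33) and miR-379-5p (-0.37 and -0.02) were lower in both. Opposite signs were seen for miR-434-3p (-0.84 and 0.35), miR-541-5p (-0.40 and 1.38) and miR-411-5p (-0.92 and 0.86). A sex-by-treatment difference cannot be tested with 1 library per combination, so these sets are descriptions of 4 libraries.

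Most epithelial and sensory miRNAs stood lower after DOCA-salt. miR-203-3p, of stratified epithelium, had ratios of -1.44 and -0.63, and miR-205-5p of -0.47 and -1.24. The epithelium list had 0 of 3 tested members above 0, a median of -0.92 and 0 called. miR-183-5p, of a cluster expressed in photoreceptors and hair cells, was among the 10 most abundant miRNAs. Its levels were lower in both pairs, with ratios of -0.62 (females) and -0.83 (males) and a fitted value of -0.72 ± 0.44 (adjusted p = 0.636 in edgeR's test). miR-182-5p, from the same cluster, stood at -0.44 and 0.15 with at most 63 UMIs.

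**Figure D5:**
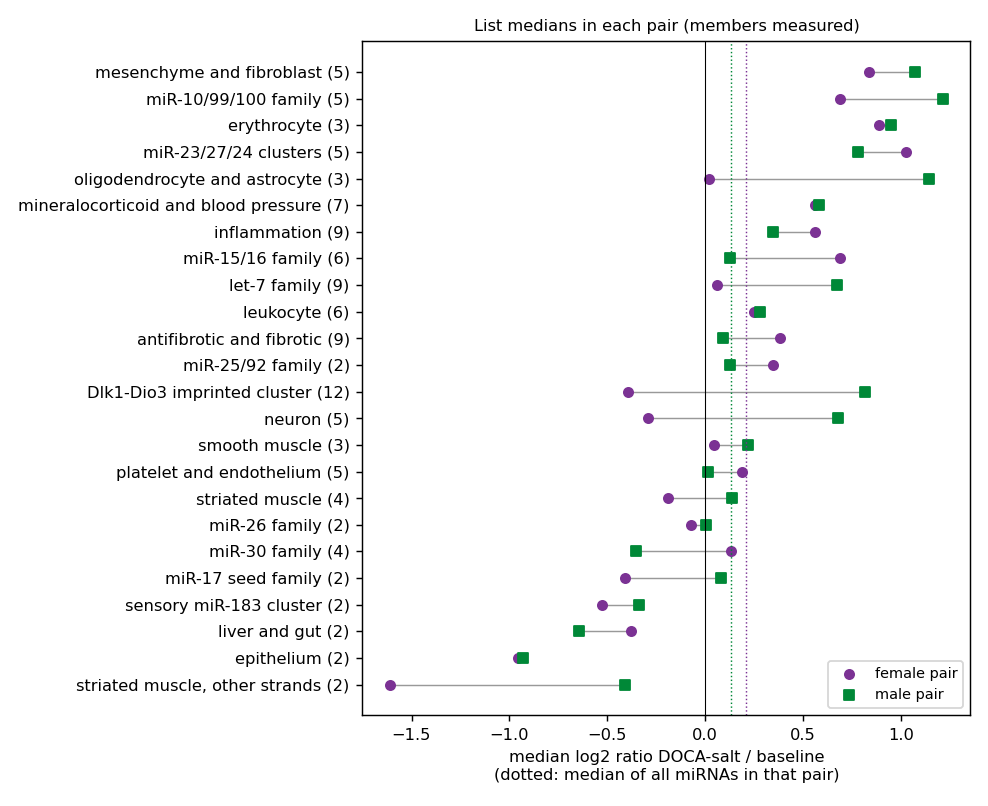
Median log2 DOCA-salt over baseline ratio of each list in the female pair (circles) and the male pair (squares), with the number of members at 50 UMIs or more in each pair in brackets; dotted lines are the medians of all 377 miRNAs, 0.21 in females and 0.13 in males. Mesenchymal, miR-10/99/100, erythrocyte and miR-23/27/24 lists lie to the right in both pairs, and the epithelium list and the other strands of striated muscle to the left, while neuronal and Dlk1-Dio3 medians lie on opposite sides of 0.

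The remaining abundant miRNAs had unlike ratios in the sexes. let-7b-5p, a let-7 member abundant in brain, had ratios of 0.29 and 1.19, and let-7c-5p of -0.01 and 0.88. The let-7 list had 8 of 9 fitted values above 0, beside 530 of all 1036 tested, a median of 0.44 and 0 called. Its median ratio was 0.06 in females and 0.67 in males. Of the 9 members 5 were higher in both pairs, beside 145 of all 377 miRNAs. miR-125b-5p, abundant in neurons and glia, had 0.02 and 0.93, and miR-125a-5p -0.60 and 1.18. miR-16-5p, of blood cells and many tissues, had 0.53 and -0.96. In each of these the difference was larger in size in the male pair, and none was past 2-fold the same way in both pairs.

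Among the 9 miRNAs past 2-fold in opposite directions, miR-29a-3p was the most abundant. miR-29a-3p, which lowers collagen mRNAs, went from 1704 to 3518 CPM in females and from 11620 to 4429 CPM in males, ratios of 1.05 (0.91 to 1.18) and -1.39 (-1.45 to -1.33). The baseline male stood apart from the other 3 libraries. Its relatives miR-29b-3p (0.36 and -0.64) and miR-29c-3p (0.26 and -2.26) had the same signs. miR-8095, in an intron of Dgkg, was high in the DOCA-salt female alone, with 107 and 1146 UMIs in females and 45 and 26 in males. miR-7578, in a coding exon of Brd3, was likewise high in the DOCA-salt female, with 145 UMIs against 15 to 57 in the other libraries. miR-219a-2-3p, of myelinating oligodendrocytes, had the reverse pattern, at -1.08 and 1.14.

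Some miRNAs with low p-values rested on 1 library. miR-7231-5p had 191 UMIs in the DOCA-salt female against 8 in the baseline female, with 12 and 29 in the males, and its fitted value of 2.59 ± 0.66 did not pass in edgeR's test (adjusted p = 0.0864). miR-188-5p had 6, 4, 55 and 5 UMIs in the baseline female, DOCA-salt female, baseline male and DOCA-salt male. Its fitted value of -2.80 ± 0.67 (adjusted p = 0.053) thus rests on the baseline male, and it is named after its values were seen, since its mean was below 20 UMIs. Others with low p-values differed the same way in both pairs. miR-3074-5p (0.91 and 2.01) was among the 6 lowest p-values on the higher side. miR-770-5p (-0.91 and -2.56) and miR-12201-3p (-1.64 and -1.44) were among those on the lower side. miR-12201-3p was past 2-fold in both pairs, from 32 and 12 UMIs in females and 36 and 17 in males. It is not among the 17 because its female pair fell short of 50 UMIs.

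The DOCA-salt effect in CSF was set beside that in plasma exosomes. A test of the interaction of treatment and fluid over all 8 libraries called 1 of 1465 miRNAs (0.0683%), the row labelled miR-206-3p, and 112 had an unadjusted p under 0.05. In that fit its log2 DOCA-salt effect was -1.13 in CSF and 2.78 in plasma, and the effect in CSF minus that in plasma was -3.91 ± 0.72 (adjusted p = 0.011 in edgeR's test). With the CSF labels exchanged, an alternative added after the data were seen, 0 miRNAs were called, and with read counts also 0. The call was also lost without the baseline female or the DOCA-salt female of CSF (0 called), and without either CSF male the 2 miRNAs called were others, miR-7069-3p and miR-8095.

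Of the 17 miRNAs shared by both pairs, none differed between the fluids past the threshold. miR-10b-5p was higher after DOCA-salt in plasma too, with log2 ratios of 1.80 in females and 0.65 in males. miR-7058-3p had plasma ratios of 2.41 and 0.57, from 10 to 59 UMIs, and miR-7002-3p 0.87 and 1.41. miR-21a-5p had 1.19 and -0.22 in plasma, where its counts of 3215 to 8472 UMIs were high. miR-7032-5p was not higher in plasma, at -0.19 and -0.68, with an interaction of 1.97 ± 0.67 that did not pass (adjusted p = 0.439 in edgeR's test). Nor did those of miR-6965-3p, at -2.13 ± 0.69, and miR-183-5p, at -2.08 ± 0.64, with the same adjusted p. miR-183-5p was lower in CSF and, at 0.78 and 1.80, higher in plasma.

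The read columns of the CSF table, which count reads before identical UMIs were merged, gave the same signs in both pairs for all 17 miRNAs. Reads per UMI were low, between 1.19 and 1.69 per library. With reads, 12 miRNAs were 2-fold higher and 6 lower in both pairs, and 10 of the 11 and 5 of the 6 remained past the limit. miR-139-5p was at 1.81 and 0.90 in reads, and miR-6356 at -1.38 and -0.98. For miR-21a-5p the read ratios were 2.21 and 1.47, close to those in UMIs.

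The 2-fold limit cut through a continuous range. Just inside it were miR-6356, whose smaller ratio in size was -1.06, and miR-5108, also at -1.06, with miR-3063-3p at 1.06 and miR-214-3p at 1.07. Just outside were miR-199a-5p, whose smaller ratio was 0.99, miR-486a-5p at 0.93, miR-770-5p at -0.91 and miR-139-3p at -0.89.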

How the data were processed

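Per the labels' protocols, exosomal RNA came from a miRNeasy Micro kit and a QIAseq miRNA kit added UMIs. Reads were trimmed with Cutadapt 2.7 per the labels, and the submitters' processing notes name Bowtie 1.3.0, edgeR and the builds mm10 and GRCm38. The deposited UMI and read columns hold counts per mature miRNA without scaling. The deposited CPM columns hold UMI counts scaled to the library total, as recomputed, except in 2 rows (miR-1a-3p and miR-206-3p), whose values are exchanged. UMI rows were used as labelled. Intervals are 95% exact conditional binomial intervals.

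The 4 CSF libraries were fitted with edgeR 4.0.16 (R 4.3.3) by the quasi-likelihood test after filterByExpr and TMM scaling. The terms were sex and treatment. That left 1 residual degree of freedom, and the spread was mostly borrowed across miRNAs (prior degrees of freedom 200). Benjamini-Hochberg adjustment ran over all tested miRNAs with a threshold of 0.05. The interaction with fluid used all 8 libraries and 2 residual degrees of freedom. DESeq2 1.42.0 was an alternative. Positions are those deposited, on mm10, and host genes come from GENCODE M21 on the same strand; sequences are RefSeq's.

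Named miRNAs had a mean of at least 20 UMIs and were the 6 of lowest p per direction (none passed), the 10 most abundant shared per direction, the 6 most abundant opposite ones, the 10 most abundant in CSF, up to 4 per list, the other strands of the first 2 kinds, and the 3 of lowest interaction p per direction. Members, lists and rules were chosen with earlier results of these data known. Lists come from general knowledge and are described by counts and medians only. Alternatives were other scalings, no count filter, reads, DESeq2, other model terms, exchanged miR-1a-3p and miR-206-3p labels, other pair limits and leaving out each library.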

Additional observations from a re-analysis of the deposited data

Results flagged for a closer look

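The DOCA-salt effect on the row labelled miR-206-3p differed between CSF and plasma by -3.91 on the log2 scale in the interaction test, the one miRNA called there. The row's label in CSF is uncertain, as described above.

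For 9 miRNAs the pairs went past 2-fold in opposite ways in CSF, and this difference between the sexes was not tested, as there is 1 library per combination. The male log2 ratio minus the female one was 2.57 for miR-148a-5p, 2.23 for miR-219a-2-3p and 4.42 for miR-6983-3p. It was -2.44 for miR-29a-3p, -2.78 for miR-668-5p, -2.40 for miR-7009-5p, -4.33 for miR-7578, -2.28 for miR-7654-5p and -4.30 for miR-8095. For miR-8095 and miR-7578 the DOCA-salt female alone was high.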

How the results depend on the processing

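DOCA-salt against baseline called 0 miRNAs with DESeq2's size factors, total-count scaling, library totals without muscle miRNAs, read counts, DESeq2's Wald test, treatment as the only term, the joint fit of both fluids and exchanged miR-1a-3p and miR-206-3p labels. Without the count filter it called 5 (miR-7069-3p, miR-7231-5p, miR-1a-3p, miR-188-5p and miR-21a-5p), and without robust estimation 2 (miR-188-5p and miR-7231-5p). Leaving out 1 CSF library also dropped the term for sex and left 1 library in a treatment group, so its calls are not given. The interaction with fluid called 1 miRNA, 3 without the filter, and 0 with read counts or exchanged CSF labels (added after the data were seen). It called 0 to 4 when 1 of the 8 libraries was left out, 0 without the baseline or the DOCA-salt female of CSF. The cause of these differences was not tested.

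The 17 shared and 9 opposite miRNAs became 28 and 14 with a minimum of 20 UMIs, 8 and 1 with 200 UMIs, and 60 and 25 at a 1.5-fold limit. With a prior count of 5 the shared count was 15, with total-count scaling 16, without the muscle miRNAs in the totals 15 (5 higher and 10 lower) and with reads 18. A count shared by both pairs cannot be had without 1 library. Of the 107 miRNAs in the fit that were named by rule or complete the 17, miR-1a-3p, miR-21a-5p and miR-7231-5p passed in at least 1 alternative. With exchanged labels miR-1a-3p stood at -1.17 and miR-206-3p at 1.80, so both turned sign, called in neither setting. Besides miR-1a-3p, 109 values of named miRNAs changed sign while called in neither setting, that of miR-206-3p among them. The settings include the CSF fits without 1 library, which had no term for sex. The term for sex pairs the libraries in the main test, as the labels give no replicate numbers. Depth limits the little-studied miRNAs: at the 12 and 44 UMIs of miR-7045-5p in females, counting error alone spans a log2 ratio of 0.63 to 2.64.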

Other observations

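Vessel and other tissue miRNAs, on lists described by counts alone with 0 members called in edgeR's test, had ratios on both sides of the median of all miRNAs (0.21 in females and 0.13 in males). miR-143-3p, the main miRNA of smooth muscle, had log2 ratios of -0.05 and -0.03, and miR-145a-5p from the same cluster 0.13 and 0.39. The endothelial miR-126a-3p stood at 0.29 in females and -1.15 in males, while its other strand miR-126a-5p stood at 0.19 and 0.40. The list of platelets and endothelium had a median fitted value of -0.16 over 6 members. miR-122-5p, of hepatocytes, had -0.28 and -1.51. For glia, with a median of 0.28 over 4 members, miR-338-3p of oligodendrocytes had -1.66 and 0.71 from 6 to 100 UMIs.

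Among seed families, the miR-15/16 family had 5 of 6 members higher in both pairs (median fitted value 0.44), beside 145 of all 377 miRNAs. The family's count was 3 with total-count scaling and 2 without the muscle miRNAs in the totals, where its median was 0.19. Its member miR-195a-5p, expressed in heart and vessels, stood at 1.26 and 0.45. Medians were -0.12 for miR-30 (5 members), -0.09 for the miR-17 seed family (3 members), 0.45 for miR-25/92 (3 members) and -0.03 for miR-26 (2 members). The list of fibrosis miRNAs had a median of -0.11 over 9 members, since miR-29 and miR-30a-5p stand on it beside miR-21a-5p and miR-214-3p. The rodent-specific Sfmbt2 cluster had 2 members tested of 15 listed in the table, with fitted values of -1.22 and 1.31.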
